A study of Bos taurus with 8 samples.

Results

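Mitochondrial ribosomal protein genes are the nuclear genes whose symbols begin with MRPL (large subunit) or MRPS (small subunit) followed by a number. They were found by gene name, or by the symbol of the probe's accession, among the probes of 8 one-colour Agilent bovine arrays, and no expression value entered the choice. The array holds 77 such genes, 48 MRPL and 29 MRPS, among 16299 named genes, and 147 of its 51282 probes belong to them. All 77 had at least 1 probe in the test of 34627 probes, so the filter on dim probes removed none, and 138 of the 147 probes were tested.

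The series measured messenger RNA in samples named fetal cotyledon, the fetal part of the ruminant placenta, with 4 arrays titled as non-pregnant and 4 as pregnant. The organism is given as Bos taurus and the sex as female for all 8. The collection protocol, shared by both groups, speaks of gravid uteri from pregnant buffalo taken at a slaughterhouse, so by that text the samples are buffalo tissue, read with probes designed for cattle. No strain, age, stage of gestation or treatment is given for either group in the labels. The descriptions speak of expression before pregnancy for the arrays titled non-pregnant and after pregnancy for those titled pregnant. Nothing states that replicates came from separate animals, so each p-value reflects the spread among these 8 samples alone, which may be technical.

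The tissue named in the labels was checked against marker genes. The 11 trophoblast markers, genes of the placental epithelium, all fell in the arrays labelled pregnant. Their summed signal, in multiples of each array's 75th percentile, ran from 582 to 908 under the non-pregnant label and from 5.74 to 13.3 under the pregnant label, where CDX2 and PLAC1 were not well above background on any array. Of 9 endometrial markers, from the lining of the uterus, 7 rose and 1 fell, with sums of 29.0 to 39.9 against 121 to 235. All 8 erythroid markers, genes of red blood cell precursors, fell (337 to 604 against 0.633 to 2.90), as did all 10 markers of proliferating cells (65.1 to 85.0 against 6.58 to 7.53). Of 10 leukocyte markers 7 rose and 2 fell, yet their sum went down (90.8 to 112 against 27.7 to 73.0), a sum being weighted towards the brightest genes. Their log2 array medians went the other way, with group means of -3.34 under the non-pregnant label and 1.67 under the pregnant label. Of 7 smooth muscle markers 5 rose and none fell (8.97 to 14.8 against 26.5 to 40.4), and of 6 endothelial markers 1 rose and 1 fell (6.36 to 8.16 against 6.29 to 11.8). The arrays labelled non-pregnant therefore carry the placental transcripts, against their label, and the groups are called by their labels throughout. These marker sums differ between the same groups as every value below, and their part in the mitochondrial ribosomal differences was not tested. In whole tissue, fewer cells of a type and less RNA per cell cannot be told apart. All 8 arrays lay on 1 slide, with the non-pregnant samples in one row and the pregnant samples in the other, so slide row and group cannot be told apart. Over all tested probes, arrays of 1 label correlated at 0.943 or higher and arrays of different labels at 0.736 to 0.783.

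Mitochondria have their own ribosome, the mitoribosome, which translates only the few proteins encoded by mitochondrial DNA, all of them subunits of the respiratory chain and ATP synthase. Its RNA comes from the mitochondrial genome, whereas its proteins are made in the cytosol from nuclear genes and imported. Some of these proteins descend from those of bacterial ribosomes and the others are found only in mitochondria, where they enlarge the protein shell around the RNA. The binucleate and uninucleate trophoblast of the ruminant cotyledon is an actively synthesising epithelium whose energy supply rests on mitochondria.

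The probes are 60 bases long, and 134 of the 147 have a place on a chromosome of the build Btau_3.1 in the file headers. The sources used here do not give each probe's exon or its place in the transcript's coding part. Of the probes 19 span more than 60 bases of the genome, as a probe made from spliced RNA can when it crosses an intron. These spans run from 64 bases (MRPL43) to 15611 bases (MRPS35), and whether each holds an intron was not tested. The following 8 probes, taken from the scanner files, are shown because the results below turn on them: 7 belong to genes whose probes are compared with each other, and that of MRPS25 is the only probe of its gene. Each has at least 1 forward reading frame without a stop codon, which does not show that it lies in the coding part. The first pair is from MRPL24, which fell, at chr3:15519083-15519142 and chr3:15519549-15519702 (plus strand), and the second pair from MRPL9, which rose, at chr3:20533269-20535034 and chr3:20538251-20538310 (plus strand).
MRPL24 at transcript position 373: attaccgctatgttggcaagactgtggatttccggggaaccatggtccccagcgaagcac
MRPL24 at transcript position 598: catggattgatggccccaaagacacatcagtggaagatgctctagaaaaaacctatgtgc
MRPL9 at transcript position 484: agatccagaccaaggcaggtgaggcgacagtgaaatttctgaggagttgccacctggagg
MRPL9 at transcript position 702: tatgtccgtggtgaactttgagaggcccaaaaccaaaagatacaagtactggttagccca
The next come from MRPS17 (chr25:29481945-29482004, plus strand) and MRPS25 (chr22:58847115-58847174, plus strand), which fell. The last come from MRPS21 (chr3:21876686-21876745, minus strand) and MRPL14 (chr23:18280407-18280466, minus strand), whose probes disagreed.
MRPS17 at transcript position 350: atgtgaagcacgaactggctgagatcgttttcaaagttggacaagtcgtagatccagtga
MRPS25 at transcript position 262: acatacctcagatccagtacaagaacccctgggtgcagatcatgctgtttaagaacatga
MRPS21 at transcript position 242: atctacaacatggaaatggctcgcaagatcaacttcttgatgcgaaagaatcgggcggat
MRPL14 at transcript position 117: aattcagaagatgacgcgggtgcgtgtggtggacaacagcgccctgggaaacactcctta

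Of the 77 mitochondrial ribosomal protein genes, 36 fell on the arrays labelled pregnant, 2 rose and 39 did not pass the test (limma, adjusted p under 0.05 over all tested probes). The leading falls were in MRPL18, MRPS24 and MRPS10, at 4.17 to 4.48-fold, and the rises were in MRPL9 and MRPL50, at 1.73-fold and 1.69-fold. Values are log2 signals relative to the array's own 75th percentile, and differences are the mean under the pregnant label minus the mean under the non-pregnant label, with n = 4 each.

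Calls were common over the whole array, and the counts have to be read against that. Of 12898 tested genes 62.7% were called, 33.0% lower and 29.7% higher. The members were called in 49.4%, below that background, with 46.8% lower and 2.60% higher. Among the 2728 genes whose mean signal lay within the quartiles of the members', 60.8% were called, 38.5% lower and 22.3% higher. The groups did not overlap in 60.3% of all genes (32.1% lower, 28.2% higher), and in 36 members lower and 4 higher. The median difference was -0.55 over the members, with quartiles of -0.85 and -0.13, and -0.03 over all tested genes. The median size of the difference, whatever its sign, was 0.56 for members and 1.01 for all genes. A called difference of at least 2-fold was seen in 14 members, all lower, against 24.3% of all genes lower and 23.7% higher.

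The fitted difference was below 0 in 61 members and above 0 in 16. The standard errors ran from 0.16 to 0.34 with a median of 0.21, the smallest difference that was called was 0.42 in size and the greatest that was not called was 0.72. A further 6 members missed the threshold although their groups did not overlap, 4 lower and 2 higher. The 8 arrays had member medians of 2.71, 2.66, 2.59 and 2.08 (labelled non-pregnant, arrays 1 to 4) and 1.98, 1.97, 1.86 and 2.04 (labelled pregnant). Array 4 of the non-pregnant label was low among its group, being the lowest of the 4 in 57 of the 77 members, and array 1 was the highest in 53. Without array 4, 44 members were called and the members' median difference was -0.66, and without array 1, 28 members were called and the median was -0.43.

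**Figure D1:**
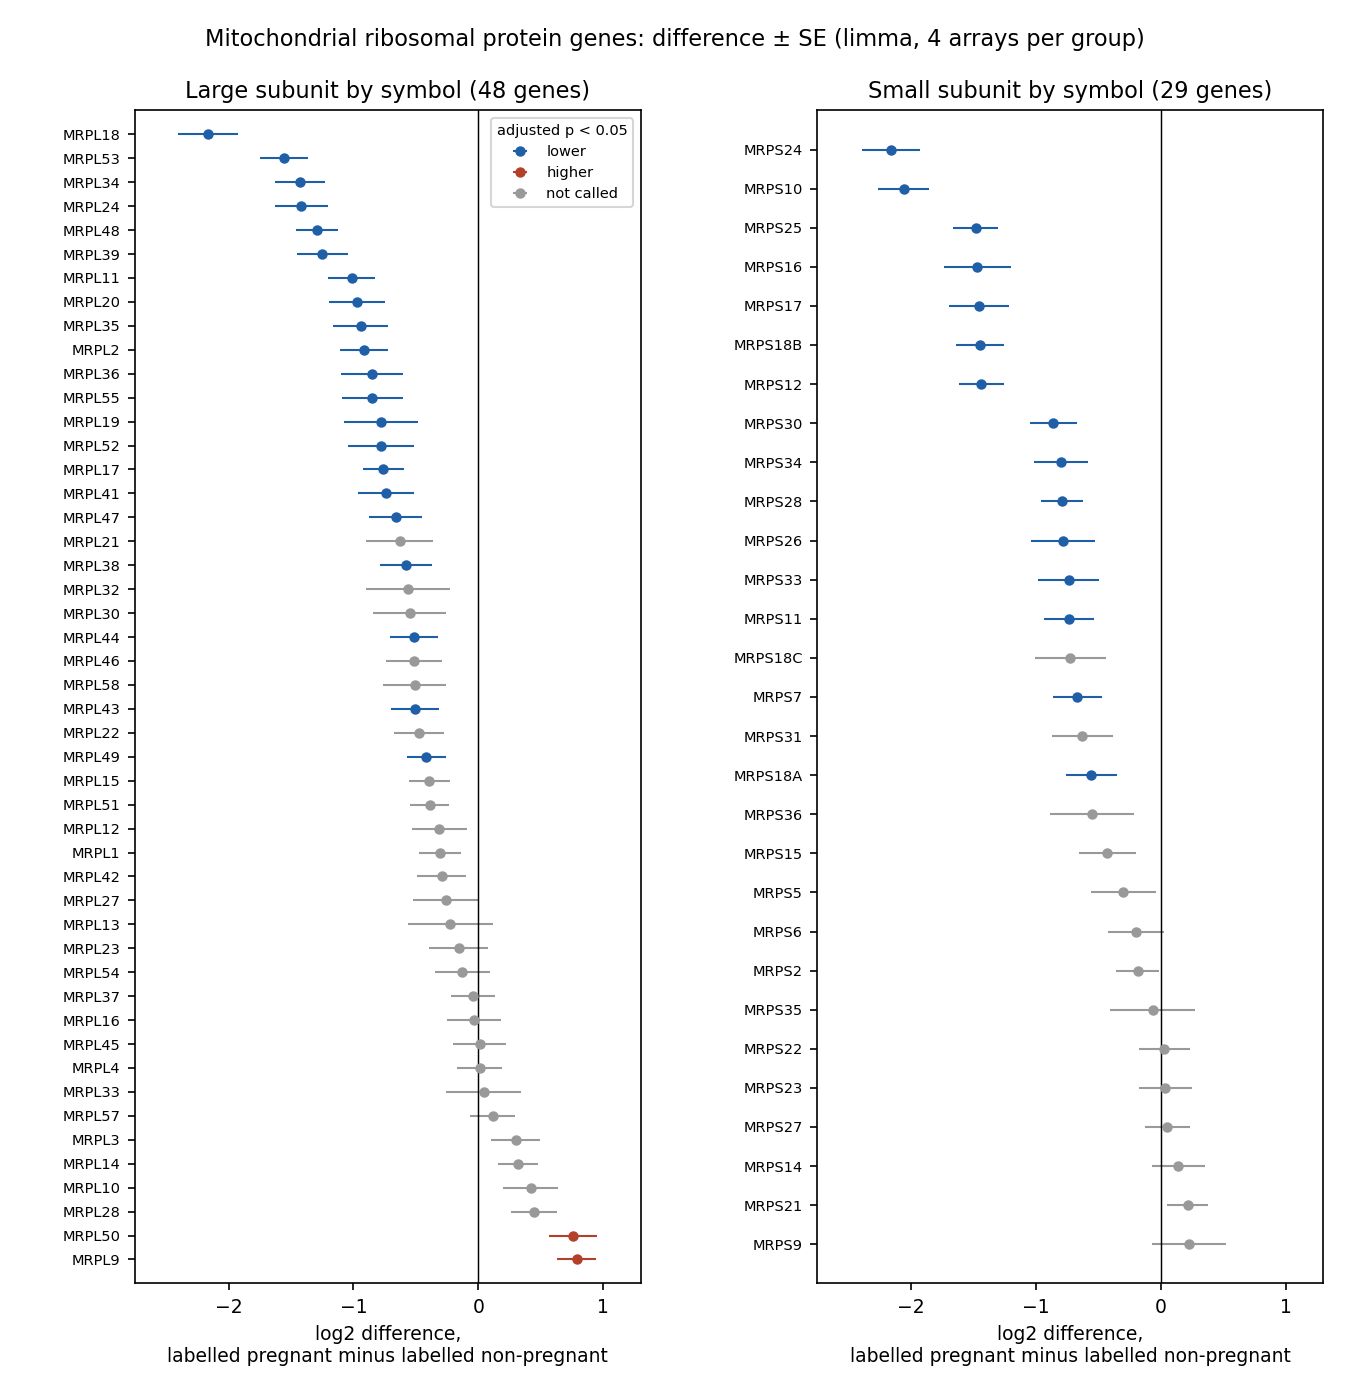
Log2 difference (arrays labelled pregnant minus arrays labelled non-pregnant, horizontal axis) of each of the 77 genes, with its standard error as a bar, in order of size within the large (left) and small (right) subunit; blue points fell, red points rose and grey points did not pass the test. In the large subunit 21 genes fell and 2 rose, and in the small subunit 15 fell and none rose.

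The large subunit carries the centre that joins amino acids. By symbol, 21 of its 48 genes fell and 2 rose, with a median difference of -0.51. Its array medians were 2.62, 2.34, 2.40 and 1.98 against 1.82, 1.75, 1.77 and 1.98, so that the lowest array labelled non-pregnant met the highest labelled pregnant. Without array 3 of the pregnant label only 15 large-subunit members were called.

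MRPL18 is the counterpart of the bacterial protein that binds the small ribosomal RNA of the central protuberance, the crest of the large subunit. It read 5.49, 5.26, 5.14 and 4.47 under the non-pregnant label (arrays 1 to 4) and 2.93, 3.03, 2.99 and 2.75 under the pregnant label, the order kept for every gene below. The groups lay far apart, with array 4 the lowest of its group in both. The difference was -2.16 (SE 0.24, adjusted p 6.94e-05), a 4.48-fold fall, and its other tested probe fell too (adjusted p 0.00155). MRPL48, a mitochondria-specific protein of the same crest, read 1.87, 1.49, 1.75 and 1.52 against 0.29, 0.42, 0.46 and 0.30, a difference of -1.29 (SE 0.17, adjusted p 0.000201). Of the 7 members listed for the central protuberance 5 fell (MRPL18, MRPL48, MRPL55, MRPL52 and MRPL38), with a median of -0.78 over the 7. The others, MRPL46 and MRPL27, had differences of -0.51 and -0.26 that were not called. The falls of MRPL38 and MRPL52 each rest on 1 probe. Their other tested probes were above 0 (0.03 to 0.30 for MRPL38 and 0.50 for MRPL52), none of them called. With the mean of a gene's probes both calls were lost.

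The stalk of the large subunit recruits the translation factors that hydrolyse GTP. MRPL11 at its base read 1.96, 1.72, 1.95 and 1.38 against 0.70, 0.68, 0.74 and 0.83, a fall by 1.01 (SE 0.19, adjusted p 0.00151). MRPL53, a mitochondria-specific protein at the same base, read 2.43, 2.32, 2.17 and 1.85 against 0.48, 0.78, 0.73 and 0.56. No array of the one label reached the other, and the difference was -1.56 (SE 0.19, adjusted p 0.00013). That value belongs to 1 probe of 4, however, and none of its other 3 was called. The mean of the 4 probes gave -0.21 and lost the call, and over the 19 alternatives the adjusted p ran from 5.01e-05 to 0.367. The stalk proteins MRPL10 and MRPL12 and their neighbour MRPL54 had differences of 0.42, -0.31 and -0.13, none called, so 2 of 5 fell in this group. The value of MRPL10 is from its brighter probe, and its other probe, at position 820, rose by 1.11 (SE 0.37, adjusted p 0.0282). MRPL10 was called higher in 3 of 19 alternatives: with the percentile over detected probes (0.58), after quantile normalization (0.97) and with the mean of its probes (0.76). Its adjusted p ran from 0.0013 to 0.928 over the alternatives.

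The exit tunnel is the channel through which the new chain leaves towards the inner membrane. MRPL24, near its opening, read 3.66, 3.31, 3.20 and 2.91 against 1.63, 2.01, 1.75 and 2.04, without overlap. The difference was -1.42 (SE 0.21, adjusted p 0.000437), and the pair of probes printed above for it fell by 1.28 and 1.22. MRPL17 and MRPL47 fell by 0.76 and 0.66. MRPL45, which anchors the mitoribosome to the inner membrane, read 2.96, 2.81, 2.75 and 2.25 against 2.81, 2.83, 2.80 and 2.38. Its groups overlapped throughout and its difference was 0.01 (SE 0.22), the smallest of the large subunit. With MRPL22 and MRPL23, whose differences of -0.48 and -0.16 were not called, 3 of the 6 members listed for the tunnel fell.

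MRPL34, a small basic protein with a bacterial counterpart, read 2.50, 2.31, 1.83 and 1.94 against 0.56, 0.79, 0.84 and 0.69. The groups did not overlap and the difference was -1.43 (SE 0.20, adjusted p 0.000312), with its other probe lower by 0.64. MRPL39, a mitochondria-specific protein, fell by 1.25 (SE 0.20), and MRPL20, MRPL35 and MRPL2, all with bacterial counterparts, by 0.97, 0.94 and 0.92. Over the 30 large-subunit proteins with a bacterial counterpart, 12 fell and 1 rose, and over the 20 specific to mitochondria, 11 fell and 1 rose. Both had a median of -0.51.

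The rises were in MRPL9 and MRPL50. MRPL9, with a bacterial counterpart near the base of another flexible stalk, read 1.09, 1.13, 1.28 and 1.32 against 1.98, 2.01, 2.04 and 1.95. All 4 arrays labelled pregnant lay above all 4 others, and the difference was 0.79 (SE 0.16, adjusted p 0.00217). These values are from the probe at position 702. The MRPL9 probe at position 484, also printed above, rose by 0.61 (SE 0.15, adjusted p 0.0083). MRPL50, specific to mitochondria, read 0.56, 0.47, 0.62 and 0.73 against 1.09, 1.66, 1.52 and 1.15 by its only probe. This is a difference of 0.76 (SE 0.19, adjusted p 0.00816), again without overlap.

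Both rises depended on the scaling between arrays. With each array scaled by its median, MRPL9 and MRPL50 differed by 0.40 and 0.37 (adjusted p 0.0881 and 0.175), and with no scaling by 0.30 and 0.27 (adjusted p 0.356 and 0.44). The other 17 alternatives kept both calls, and the lowest adjusted p in any was 0.000674 for MRPL9 and 0.00347 for MRPL50.

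MRPL4, which lines the exit tunnel region in bacteria, read 3.56, 3.19, 3.22 and 3.18 against 3.19, 3.36, 3.52 and 3.13, a difference of 0.01 (SE 0.18). It was not among the members listed for the tunnel above. After quantile normalization the difference was 0.42 and was called (adjusted p 0.0473, the lowest of 19 alternatives, whose highest was 0.972). The signals of different probes do not compare transcripts with each other, so the ends of the signal range are given only as readings. MRPL41, at the upper end for the large subunit, read 5.73, 5.50, 5.50 and 5.11 against 4.39, 4.72, 4.60 and 5.16, and its difference of -0.74 (SE 0.23, adjusted p 0.0191) came with overlap, since array 4 of the pregnant label was above array 4 of the other. Its call was lost without array 1 or array 3 of the pregnant label (adjusted p 0.0549 and 0.0547), and over all alternatives the adjusted p ran from 0.0063 to 0.556. MRPL58, at the lower end, is a release factor relative built into the large subunit that frees stalled chains. It read -1.35, -1.90, -2.22 and -2.39 against -2.68, -2.56, -2.41 and -2.24, overlapping at array 4, with a difference of -0.51 (SE 0.25) that was not called. It was called lower with median scaling (-0.89, adjusted p 0.0342) and without scaling (-0.99, adjusted p 0.0208), and the highest adjusted p over the 19 alternatives was 0.273.

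The small subunit decodes the messenger. By symbol, 15 of its 29 genes fell and none rose, with a median difference of -0.67. After quantile normalization 11 fell and 2 rose, MRPS21 and MRPS27. The array medians were 3.17, 2.74, 2.85 and 2.31 against 2.29, 2.02, 2.14 and 2.33, overlapping only through array 4 of each. At an unadjusted p under 0.05 in the reported scaling there was no rise either. A called fall of at least 2-fold was seen in 7 members of each subunit.

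MRPS24, the counterpart of the bacterial protein at the channel where messenger RNA enters, read 4.51, 4.46, 4.38 and 3.66 against 2.33, 2.02, 1.98 and 2.02. The groups were separated by more than the range within either. The difference was -2.16 (SE 0.23, adjusted p 5.86e-05), a 4.48-fold fall measured by 1 probe. MRPS10, in the head of the subunit, read 4.95, 4.81, 4.28 and 4.42 against 2.62, 2.49, 2.66 and 2.45. It fell by 2.06 (SE 0.20, adjusted p 3.35e-05) and by 2.45 at its other probe, so its probes agreed in direction and call.

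MRPS25, a mitochondria-specific protein, read -0.25, -0.20, 0.02 and -0.28 against -1.93, -1.44, -1.53 and -1.73 by the single probe printed above. The values of each group were close together and the difference was -1.48 (SE 0.18, adjusted p 0.00013). MRPS16, an early-binding protein of the small subunit in bacteria, read 3.50, 2.84, 2.85 and 2.18 against 1.21, 1.46, 1.44 and 1.39. Here the arrays labelled non-pregnant spread widely (SD 0.54), and the difference was -1.47 (SE 0.27, adjusted p 0.00147). MRPS17 read 5.25, 4.79, 4.73 and 4.13 against 3.23, 3.35, 3.32 and 3.18, falling by 1.46 (SE 0.24, adjusted p 0.000809) and by 1.29 at the probe printed above.

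MRPS18B, specific to mitochondria, and MRPS12, the counterpart of the bacterial decoding-centre protein that is the classical site of streptomycin resistance, fell by 1.45 and 1.44 (SE 0.19 and 0.18). After these 7 there was a gap in the ranking. The next by size were MRPS30, MRPS34, MRPS28, MRPS26, MRPS33 and MRPS11, which fell by 0.86, 0.80, 0.79, 0.78, 0.74 and 0.73. Of 16 small-subunit proteins with a bacterial counterpart 8 fell, and of 10 specific to mitochondria 5 fell, with medians of -0.70 and -0.68 and no rise in either.

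MRPS22, MRPS23 and MRPS27 are mitochondria-specific members with differences near 0. MRPS22 read 1.89, 1.82, 1.66 and 1.32 against 1.85, 1.72, 1.86 and 1.36, and MRPS23 read 3.17, 2.69, 2.59 and 2.42 against 2.87, 2.85, 2.79 and 2.50. Their groups overlapped over most of their range, with differences of 0.03 and 0.04 (SE 0.21 each). MRPS27, at the upper end of the signal range for the small subunit, read 4.49, 4.38, 3.97 and 4.18 against 4.35, 4.23, 4.26 and 4.39, a difference of 0.05 (SE 0.18). After quantile normalization MRPS27 was called higher, by 0.61 (adjusted p 0.013, the lowest of 19 alternatives, whose highest was 0.935). MRPS9, at the lower end, read -3.76, -3.75, -3.20 and -2.63 against -3.33, -3.27, -3.20 and -2.65, a difference of 0.22 (SE 0.30). A p above the threshold does not show equal levels, and the standard errors give how far each of these differences is known.

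**Figure D2:**
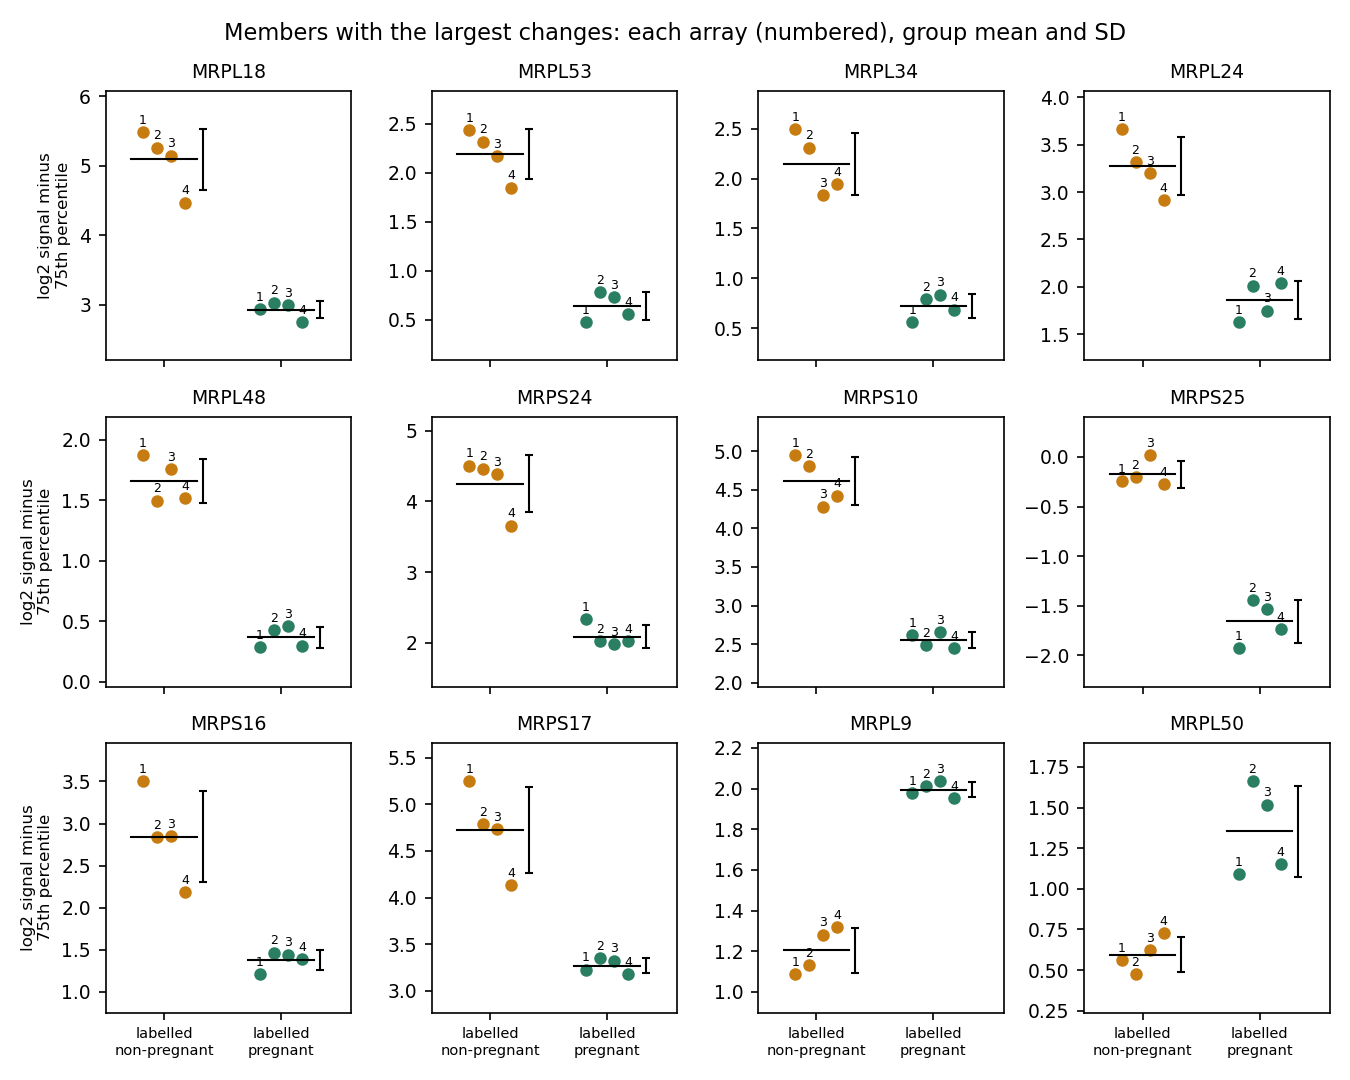
Log2 signal minus the array's 75th percentile (vertical axis, a separate range in each panel) on each of the 8 arrays, numbered by replicate, for the 5 genes of each subunit with the greatest falls and the 2 that rose; horizontal bars are group means and error bars the SD of 4 arrays. In all 12 panels the groups do not overlap, which was a condition for choosing these genes.

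The symbols of 3 small-subunit members do not match where the known mitoribosome structure places their proteins. MRPS30 and MRPS18A lie in the large subunit, and MRPS36 is no mitoribosome subunit but part of the oxoglutarate dehydrogenase complex. MRPS30 read 1.45, 1.31, 1.04 and 0.92 against 0.36, 0.36, 0.11 and 0.44, a fall by 0.86 (SE 0.19, adjusted p 0.00377) without overlap. MRPS18A read -0.28, -0.46, -0.12 and -0.45 against -0.68, -0.99, -1.26 and -0.60, a fall by 0.56 (SE 0.21, adjusted p 0.0423). That call was lost without array 1, 2 or 3 of the non-pregnant label and without array 2 or 3 of the pregnant label, and over all alternatives the adjusted p ran from 0.00734 to 0.127. MRPS36 read 2.34, 1.93, 1.82 and 1.45 against 0.88, 1.19, 1.005 and 2.26. Array 4 of the pregnant label alone lay among the other group, and the difference of -0.55 (SE 0.34, adjusted p 0.183) became -0.86 (adjusted p 0.0143) without it.

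Counted by structure, 23 of 50 large-subunit members fell and 2 rose (median -0.51) and 13 of 26 small-subunit members fell (median -0.70). The difference between the subunits was small by either count. By symbol the large-subunit median difference stood 0.16 above the small. The large minus small median on single arrays was -0.55, -0.39, -0.46 and -0.33 for the non-pregnant label and -0.47, -0.27, -0.37 and -0.35 for the pregnant label, ranges that overlap, and no test was made of it.

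Array 4 of the pregnant label stood apart in other members as well. MRPL19 read 2.92 there and 1.71 to 1.83 on the other 3, MRPL32 read 1.91 against 0.61 to 0.67, and MRPL33 read 3.75 against 2.54 to 2.65. MRPS35 read 0.26 against -1.32 to -0.93. This array was not high in general: it was the highest of its group in 31 members and the lowest in 27. Over all tested probes it correlated at 0.943 to 0.951 with the other arrays of its label, which correlated at 0.977 to 0.989 with each other. Its trophoblast, endometrial and leukocyte marker sums were the lowest of its group (5.74, 121 and 27.7) and its erythroid sum the highest (2.90). The part of these sums in the readings was not tested. Without it 38 members were called, as with it, of which 35 were shared.

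Of the 36 falls, 20 held in each of 19 alternative analyses. They were MRPL2, MRPL11, MRPL17, MRPL18, MRPL20, MRPL24, MRPL34, MRPL35, MRPL39 and MRPL48 of the large subunit and MRPS10, MRPS12, MRPS16, MRPS17, MRPS18B, MRPS24, MRPS25, MRPS28, MRPS30 and MRPS34 by the small-subunit symbol. The other 16 lost the call in at least 1 alternative, 11 of them when a single array was left out (MRPL19, MRPL38, MRPL41, MRPL43, MRPL44, MRPL47, MRPL49, MRPL52, MRPS18A, MRPS26 and MRPS33). No called member was called in the opposite direction in any alternative. Of the 39 members not called, 17 were called lower and 6 higher in at least 1 alternative, and 16 in none.

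Probes of the same gene allowed a check within arrays. Of 43 members with several tested probes, 31 had differences of 1 sign and 12 of both signs, and no called member had another probe called the other way. The 31 include MRPL23, whose 2 tested probes are placed on opposite strands (-0.16 and -0.54, neither called). Over single probes, 58 of 138 fell and 7 rose. On 41 transcripts of 40 genes, the probe nearest the start of the transcript was compared with the one farthest from it. The farther probe gave the higher difference on 17 and the lower on 24, with a median of -0.08 for the farther minus the nearer.

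The probe ends differed by more than 1 on 4 transcripts, and in each the probe nearer the start was the lower. MRPS21, a small protein of the small subunit, read 2.01, 1.79, 1.88 and 1.17 against 0.50, 0.64, 0.52 and 0.74 at position 242, the probe printed above, and fell by 1.11 (adjusted p 0.00206). At position 1821 of the same transcript it rose by 0.58 (adjusted p 0.0247), and at position 1618, the brightest probe and hence the one that represents the gene, the difference was 0.22 (adjusted p 0.285). MRPL14, a protein at the interface of the subunits in bacteria, read 0.82, 0.59, 0.48 and 0.26 against -0.94, -0.56, -0.57 and -0.25 at position 117, a fall by 1.12 (adjusted p 0.00169), while the representing probe at position 1189 differed by 0.32 (adjusted p 0.12). MRPL15 and MRPS35, whose representing probes were not called, likewise fell at the probe nearest the start, by 1.13 and 0.62.

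MRPL51, specific to mitochondria, differed by -0.39 at position 433 (adjusted p 0.0598) and rose by 0.75 at position 2757 (adjusted p 0.0189). MRPL53 differed by -1.56 at position 855 and by 0.24 at position 2842 (adjusted p 0.267). A pair of further probes that carry the name MRPL12 lies on another transcript identifier than its remaining 2, with differences of -0.97 and -0.29, neither called. The remaining pairs differed by 1 or less, as in MRPL28, where both probes were above 0 (0.98, adjusted p 0.0221, at position 288 and 0.45, adjusted p 0.0632, at position 662).

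**Figure D3:**
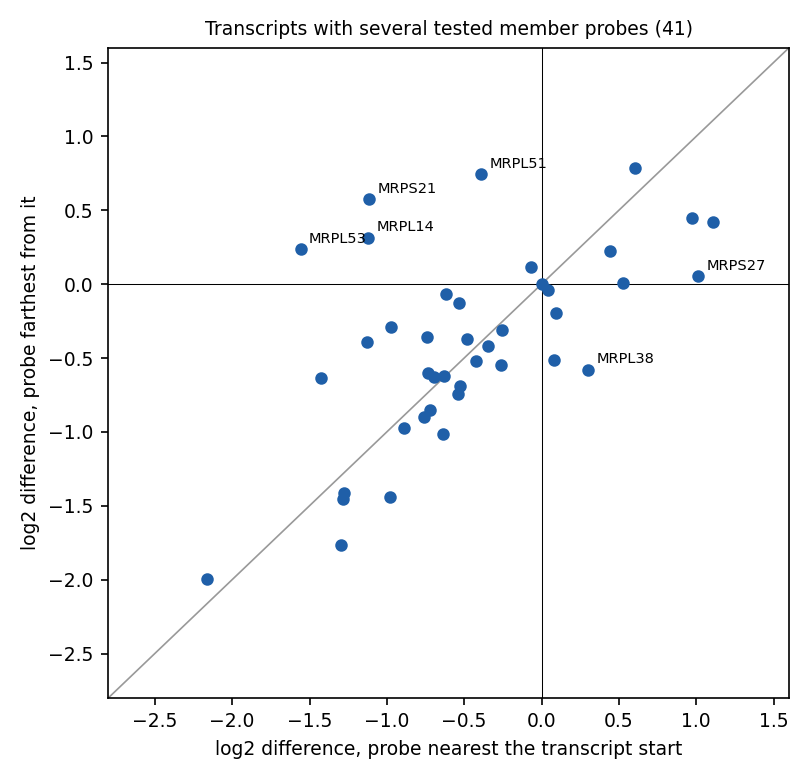
Log2 difference (arrays labelled pregnant minus arrays labelled non-pregnant) of the tested probe nearest the transcript start (horizontal axis) and of the one farthest from it (vertical axis) for 41 transcripts of mitochondrial ribosomal protein genes; the diagonal marks equality. Most points lie along the diagonal, and MRPL53, MRPS21, MRPL14 and MRPL51 lie more than 1 above it.

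Other genes of mitochondrial translation were read from lists. Their counts stand against 33.0% of all tested genes called lower and 29.7% called higher. Of 5 further mitoribosome subunits with other names 3 fell. DAP3, a GTP-binding protein of the small-subunit head, fell by 2.02 (SE 0.21, adjusted p 4.58e-05), about as far as MRPS10, and GADD45GIP1, of the large subunit, by 0.74 (SE 0.25). Of 17 translation factors 8 fell and none rose, with a median of -0.63. MTRF1, a release factor, fell by 2.78 (SE 0.24, adjusted p 1.55e-05), and TACO1, an activator of cytochrome oxidase synthesis, was not well above background on any array labelled pregnant and was at least 2.46-fold lower there (adjusted p 0.00254), set against the lowest well-measured signal of each array or its own signal where higher. Of 23 tested genes for mitoribosome assembly and ribosomal RNA modification 7 fell and 2 rose, with a median of -0.01. MPV17L2 and NSUN4, an assembly factor and an RNA methyltransferase, fell by 2.68 and 1.92, and MTG1, an assembly GTPase, and DHX30, an RNA helicase, rose by 1.93 and 0.58. Over the alternatives the falls ran from 7 to 14 among translation factors (12 without array 4 of the non-pregnant label) and from 6 to 10 among assembly genes, whose rises ran from 0 to 4. GADD45GIP1 kept its call in 12 of 19 alternatives, DHX30 in 14 and MTG1 in 17. TACO1 was not called after normexp background correction, where its difference was 0.09 (adjusted p 0.717, the lowest over its alternatives being 0.000933).

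Of 19 tested mitochondrial enzymes that charge or complete transfer RNA, 4 fell and 2 rose (median -0.29). IARS2 and HARS2, which charge isoleucine and histidine, fell by 1.59 and 0.93, and YARS2 and AARS2, for tyrosine and alanine, rose by 2.14 and 0.79. The falls ran from 3 to 9 over the alternatives and the rises from 1 to 3, and AARS2 kept its call in 13 of 19. Of 9 tested genes of mitochondrial DNA replication and transcription 2 fell and none rose (median -0.33). The falls were 21.1% of the transfer RNA enzymes and 22.2% of these genes, both below the 33.0% of all tested genes called lower. With median scaling and without scaling 6 of the 9 fell (medians -0.71 and -0.81), and without array 4 of the non-pregnant label 4 fell. Under those 2 scalings only 34.6% and 31.3% of the calls over all genes were higher. MGME1, a DNA exonuclease, fell by 1.504 and TFAM, the protein that packages mitochondrial DNA, fell by 1.11.

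The mitochondrion's import and housekeeping genes and the respiratory chain moved in the same direction as the mitoribosome. Of 20 import and matrix genes 16 fell and none rose (median -1.21), with PHB1, an inner membrane scaffold protein, and VDAC3, an outer membrane channel, lower by 1.98 and 1.95. Of 75 nuclear-encoded respiratory chain and ATP synthase subunits 44 fell and 1 rose (median -0.66). UQCRFS1, the iron-sulfur protein of complex III, and NDUFB6, of complex I, fell by 1.73 and 1.70, and SDHB of complex II rose by 0.62. The respiratory chain count followed the scaling, with 23 lower and 6 higher (median -0.21) after quantile normalization and 63 lower and none higher (median -1.14) without scaling. SDHB was called in 9 of 19 alternatives.

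The proteins of the cytosolic ribosome, which are a separate set of genes, behaved otherwise. Of 79 none was called lower and 12 rose, which is 15.2%, below the 29.7% of all tested genes called higher. The median difference of 0.42 turned to -0.07 without scaling, where 3 fell and 1 rose. Without 1 array at a time, 7 to 22 rose, the highest count being without array 4 of the pregnant label. RPS27L, a relative of a ribosomal protein, and RPL39 rose by 1.98 and 1.22. Their array medians were 7.35, 6.99, 7.17 and 6.52 against 7.68, 7.51, 7.46 and 7.06, overlapping between the labels. Array 4 was the lowest of its group in both. At an unadjusted p under 0.05 (limma) the count of falls was still 0 for the cytosolic proteins, as was that of rises for the translation factor, import and mitochondrial DNA lists.

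**Figure D4:**
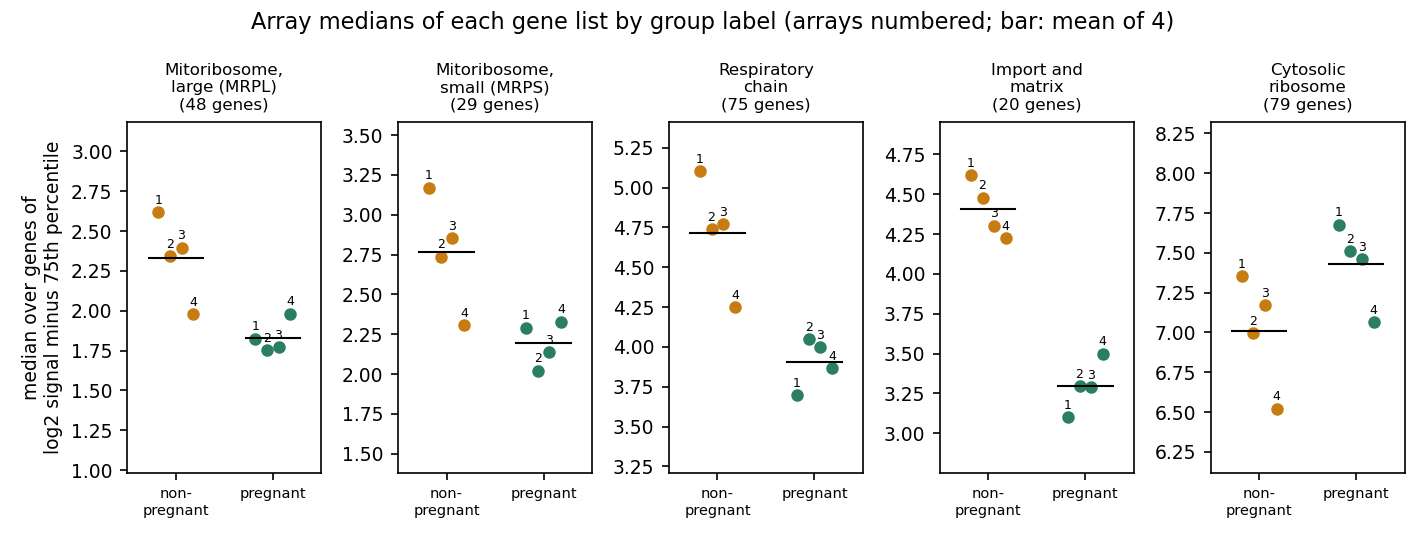
Median over the genes of each list of the log2 signal minus the array's 75th percentile (vertical axis, same span in each panel), for the 4 arrays labelled non-pregnant and the 4 labelled pregnant, numbered by replicate; the bar is the mean of 4. The respiratory chain and import panels show no overlap between labels, the subunit panels overlap through array 4, and in the cytosolic ribosome panel arrays 1 to 3 of the pregnant label lie above all 4 others.

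Of 8 tested regulators of mitochondrial gene expression 2 fell and 1 rose. GABPA, the DNA-binding subunit of the factor also called NRF2 that acts on many genes for mitochondrial proteins, read 2.06, 1.64, 1.65 and 1.44 against -2.36, -2.32, -2.66 and -2.25 by its only tested probe. The groups lay further apart than in any mitochondrial ribosomal gene, with a difference of -4.09 (SE 0.20, adjusted p 7.51e-07). NRF1, a factor acting on an overlapping set of genes, read -4.22, -3.88, -3.28 and -3.15 against -1.81, -2.19, -2.31 and -2.70, a rise by 1.38 (SE 0.30, adjusted p 0.00339). ESRRA, an orphan nuclear receptor of the same network, fell by 0.80 (SE 0.19, adjusted p 0.00735), with 1 array labelled pregnant left out of its fit because its spot was marked as an outlier. The call of ESRRA was lost in the deposited value table (-0.47, adjusted p 0.227) and with the mean of its probes (-1.30, adjusted p 0.136). The stricter limit for dim probes left out the probe with the marked spot, and another ESRRA probe was not called (-0.37, adjusted p 0.535). The lowest adjusted p of ESRRA over the 19 alternatives was 0.0029. GABPB1, the partner of GABPA, differed by 0.22, and PPARGC1A, PPRC1, YY1 and MYC by -1.23, -0.41, -0.28 and 0.67, none of them called. Without array 4 of the pregnant label PPARGC1A was called lower (-2.02, adjusted p 0.000535) and MYC higher (0.88, adjusted p 0.0114). PPARGC1A was called in no alternative that kept that array. MYC was called higher in several others, but not with median scaling or without scaling (0.28 and 0.18). Without scaling PPRC1 and YY1 were called lower (-0.90 and -0.77, adjusted p 0.00779 and 0.0153).

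The number of falls followed the scaling between arrays. The median difference of all tested genes was -0.03 as reported, -0.42 with median scaling, -0.52 without scaling, 0.13 with a percentile over detected probes, 0.02 after quantile normalization and 0.06 after normexp background correction. Members called were 50 lower with median scaling and 49 lower without scaling, with none higher in either. They were 30 lower and 5 higher with the percentile over detected probes, 24 lower and 8 higher after quantile normalization, and 42 lower and 2 higher after normexp correction. Relative to the median of all genes, the members stood at -0.33 after quantile normalization and at -0.61 after normexp correction. They stood at -0.51 as reported, with the other percentile, with median scaling or with none. Those last settings differ only by 1 constant per array, which moves all genes alike, so their equal value was fixed in advance. Over all genes, 47.3% of calls were higher as reported, 34.6% with median scaling and 31.3% without scaling. The members' median stayed below 0 under each of these scalings.

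**Figure D5:**
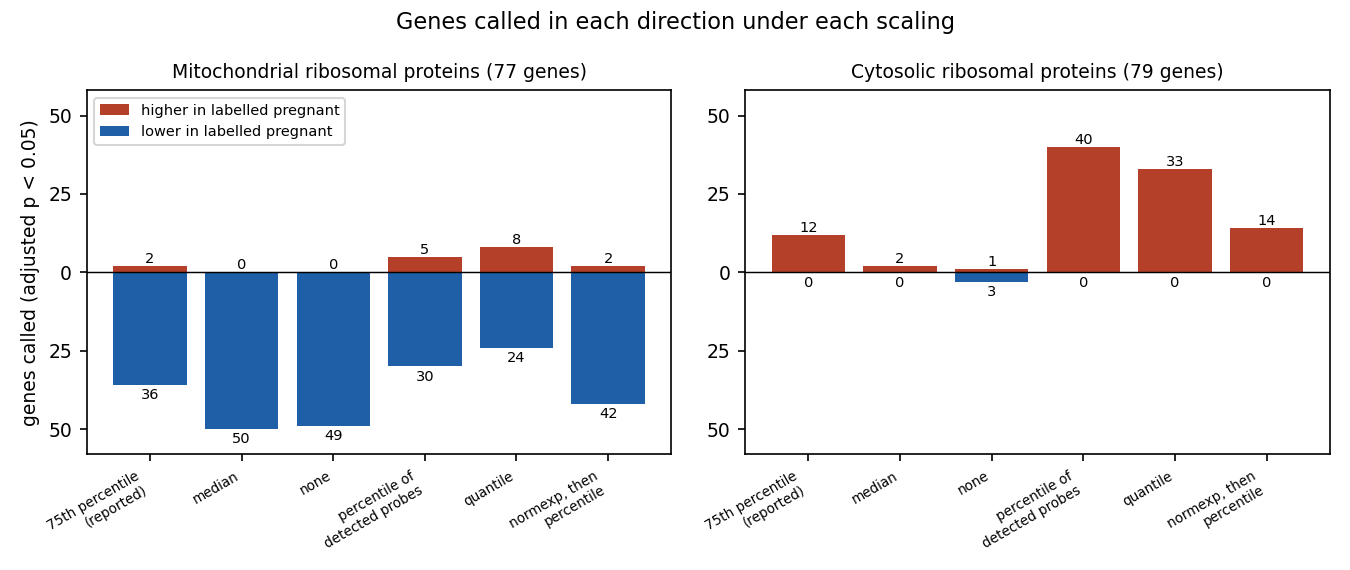
Number of genes called higher (red, upward) and lower (blue, downward) on the arrays labelled pregnant under each scaling or background correction, for the 77 mitochondrial (left) and 79 cytosolic (right) ribosomal protein genes. Falls outnumber rises in every bar of the mitochondrial set, from 24 against 8 to 50 against 0, and the cytosolic set ranges from 1 rise and 3 falls without scaling to 40 rises.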

How the data were processed

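The authors deposited scanner tables of 8 one-colour arrays. Per the file headers they were made with Agilent Feature Extraction 11.5.1.1 (protocol GE1_1105_Oct12), which subtracts local background from each spot intensity. The log2 values in the table deposited by the authors are centred near each array's 75th percentile, as read from the values, and served as an alternative.

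Log2 processed intensity minus the array's 75th percentile was averaged over spots of a probe, leaving out 1319 control spots and 119 outlier spots. No spot was saturated. From 60.6% to 69.5% of probes exceeded background on an array, and the number of arrays limits precision. Probes well above background on at least 4 arrays were tested with limma 3.58.1 (R 4.3.3, lmFit and eBayes, Benjamini-Hochberg over all tested probes, threshold 0.05), after testing on simulated data. The brightest tested probe stood for a gene. Of member probes, 128 were named by accession and 19 by file symbol, from a cattle reference table (ARS-UCD2.0).

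Members, lists and tests were chosen with earlier results of these data known. Per-array values are given for the 5 called members of each subunit with the largest fall and rise without overlap, the 2 nearest 0, the brightest and dimmest, and 3 whose symbol and structure differ. Other members, chosen after their values were seen, illustrate roles. Of each list, up to 2 called genes per direction are named, and all regulators. Alternatives changed scaling, background, filter, probe choice, replicate block and arrays.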

Additional observations from a re-analysis of the deposited data

Results flagged for a closer look

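A value far from the other 3 of its group was looked for in 162 groups of 4 arrays (77 genes and 4 medians, 2 labels each), where chance alone flags about 1 in 20 groups, and 10 groups met it. On array 4 of the pregnant label, MRPL19 (2.92), MRPL32 (1.91), MRPL33 (3.75) and MRPL38 (2.97) were high, the others lying at 1.71 to 1.83, 0.61 to 0.67, 2.54 to 2.65 and 2.59 to 2.60, and MRPL45 (2.38) was low against 2.80 to 2.83. MRPS24 was low on array 4 of the non-pregnant label (3.66 against 4.38 to 4.51) and high on array 1 of the pregnant label (2.33 against 1.98 to 2.02). MRPL49 (0.81) and MRPS34 (2.24) were high on array 3 of the non-pregnant label, against 0.63 to 0.66 and 1.74 to 1.76. MRPL4 was high on array 1 of that label (3.56 against 3.19 to 3.22).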

How the results depend on the processing

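The counts of members called stayed within 1.5 times the reported 38 in all 19 alternatives, 18 planned and 1 (without array 3 of the non-pregnant and array 4 of the pregnant label together, 32 members) chosen after seeing the data. The medians of all, large-subunit and small-subunit members moved by more than their spread to -0.93, -0.89 and -1.05 with median scaling, to -1.03, -0.99 and -1.15 without scaling, and to -0.31, -0.25 and -0.34 after quantile normalization. The large minus small difference of 0.16 became 0.26 with the mean of a gene's probes. Leaving out 1 array at a time gave 28 to 44 members, 15 to 26 large-subunit members (lowest without array 3 of the pregnant label) and 12 to 18 small-subunit members called. Over the same omissions the median differences were -0.66 to -0.43 (all), -0.59 to -0.40 (large) and -0.78 to -0.54 (small), and large minus small 0.14 to 0.21. With the replicate number as a block, 30 members were called, 28 lower and 2 higher, and 7847 genes in all. Same-numbered arrays correlated at 0.01, 0.08, 0.05 and 0.15 in their deviations, so the numbers were not taken to pair the samples. With 4 arrays a group, the smallest difference called among members was 0.42. Promoter motifs, though planned, were not run.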
